A study of Homo sapiens with 24 samples.

Results

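The genes described here are 10 receptor genes of the natural killer complex, a cluster of C-type lectin-like receptor genes on the short arm of chromosome 12: KLRG1, CD69, CLEC2B, CLEC12A, CLEC1B, CLEC12B, CLEC9A, CLEC1A, CLEC7A and OLR1, in chromosome order. They are 10 of 19866 protein-coding genes whose RefSeq spans were set against the peak lists, and each was taken with 2 kb on both sides, together with the stretch that runs between them (chr12:8948044-10178266, hg38, 1230 kb). They were picked with their H4K20me3 cover in these libraries in view, so their values and those of the stretch are given as a description, with no test.

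The measurement is CUT&RUN, in which an antibody directs a nuclease to cut out the chromatin it binds, against trimethylated lysine 20 of histone H4 (H4K20me3). The cells are HN-SCC-151, a line from an HPV-negative squamous cell carcinoma of the head and neck, labelled Wild type in every group. Of 24 samples, 14 are H4K20me3 libraries and were used. In the inhibitor arm, 3 libraries come from cells given A-196 (2.5 µM), an inhibitor of SUV420H1, and 3 from cells given DMSO. In the siRNA arm, 4 come from cells given siSUV420H1, an siRNA against SUV420H1, and 4 from cells given the control siRNA siNC. Treatment lasted 6 days and each reaction took 500000 cells. The design text names 3 dishes per condition, so some of the 4 siRNA libraries of a group may share a dish, and p-values measure the spread between libraries. The inhibitor arm's IgG control is labelled DMSO and that of the siRNA arm carries no treatment, so arm and batch cannot be told apart. The level of SUV420H1 was not analysed here, and peak lists check neither the knockdown nor the cell line's identity.

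SUV420H1 (KMT5B) and its relative KMT5C add methyl groups to H4K20, and the trimethylated form is known from heterochromatin and repeats, where it goes with silent chromatin. The natural killer complex encodes receptors with a lectin-like domain outside the cell, most of them used by natural killer cells, T cells, dendritic cells and other myeloid cells, and by platelets or endothelium. Some carry inhibitory motifs in their cytoplasmic tails and others signal activation. Squamous epithelium is not where most of these receptors are known to act, and the peak lists say nothing of their expression.

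Peaks lie on a grid of 1000 bp and none is narrower than 5 kb. Libraries held 8505, 13464 and 9798 peaks with A-196, 8430 to 8921 with DMSO, 9325 to 10203 with siSUV420H1 and 13818 to 14675 with siNC. The lists give no read counts, so depth is unknown and no counting interval can be given. Each library pools many cells, so a mark weaker in every cell and a mark missing in some cells cannot be told apart. A gene is called marked where at least 200 bp of its span with flanks lie under peaks.

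RefSeq promoter sequences (GRCh38.p14, 250 bases before to 50 after a start) were at hand for 4 of the 10 receptor genes, and 3 of them are shown with that of KLRF2, a lectin receptor gene inside the same stretch. They are shown because they differ in their CpG content and in whether a peak lay over them. Capitals mark each CG dinucleotide, which reads the same on both strands; the rest is in lower case. KLRG1 is chr12:8949794-8950093, CLEC12A is chr12:9971159-9971458, CLEC12B is chr12:10010377-10010676 and KLRF2 is chr12:9881239-9881538, all on the plus strand.
KLRG1: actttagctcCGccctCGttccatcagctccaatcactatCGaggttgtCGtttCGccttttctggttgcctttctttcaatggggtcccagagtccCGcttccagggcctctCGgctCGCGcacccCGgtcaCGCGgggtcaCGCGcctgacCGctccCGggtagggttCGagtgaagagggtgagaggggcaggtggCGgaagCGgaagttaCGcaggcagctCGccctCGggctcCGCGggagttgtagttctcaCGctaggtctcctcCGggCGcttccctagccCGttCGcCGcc
CLEC12A: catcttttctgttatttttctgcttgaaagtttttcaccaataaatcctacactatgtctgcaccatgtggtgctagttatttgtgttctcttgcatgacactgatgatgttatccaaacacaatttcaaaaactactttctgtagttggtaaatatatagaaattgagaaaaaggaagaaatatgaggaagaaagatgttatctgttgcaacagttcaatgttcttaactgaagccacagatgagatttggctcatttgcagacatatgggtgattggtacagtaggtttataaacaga
CLEC12B: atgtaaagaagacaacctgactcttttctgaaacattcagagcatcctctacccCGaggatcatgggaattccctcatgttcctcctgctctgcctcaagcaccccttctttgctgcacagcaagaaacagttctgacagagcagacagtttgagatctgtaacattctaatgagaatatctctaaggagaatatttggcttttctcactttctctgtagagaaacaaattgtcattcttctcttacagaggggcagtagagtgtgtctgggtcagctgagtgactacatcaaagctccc
KLRF2: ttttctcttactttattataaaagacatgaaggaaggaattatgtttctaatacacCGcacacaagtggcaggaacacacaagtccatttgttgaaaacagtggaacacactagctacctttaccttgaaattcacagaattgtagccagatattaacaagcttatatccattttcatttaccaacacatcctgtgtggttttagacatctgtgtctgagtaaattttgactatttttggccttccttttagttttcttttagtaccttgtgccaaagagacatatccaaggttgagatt

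The upstream KLRG1 promoter held 30 CG and a GC content of 64.3%, and no library had a peak over it. KLRG1 has a second promoter entry (chr12:8989296-8989595, not shown), which held 0 CG (35.3% GC) and lay under a peak in 1 of 3 A-196 libraries and in no DMSO, siSUV420H1 or siNC library. CLEC12A held 0 CG (34.0% GC) and lay under a peak in 1 of 3 A-196 and 1 of 3 DMSO libraries, and in 0 of 4 siSUV420H1 and 2 of 4 siNC libraries. CLEC12B held 1 CG (44% GC) and lay under no peak, the nearest one starting 2325 bp away in all 3 DMSO and all 4 siNC libraries. The promoters shown for CLEC12A and CLEC12B lie inside the gene spans, which start at 9951268 and 10006209, and not at their edge. The KLRF2 promoter held 1 CG (35% GC) and lay under a peak in 0 of 3 A-196 and 3 of 3 DMSO libraries, and in 0 of 4 siSUV420H1 and 3 of 4 siNC libraries. Of 35116 promoters in the same table, the median holds 14 CG and 58.7% GC; 3.96% hold no CG and 10.97% hold at most 1. The shown promoters of CLEC12A, CLEC12B and KLRF2 and the second one of KLRG1 are thus among the CG-poor ones, and the upstream one of KLRG1 is not.

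Across the stretch, peaks covered 40, 32 and 48 kb in the A-196 libraries, against 207, 187 and 206 kb in the DMSO libraries. In the siRNA arm they covered 59, 77, 65 and 62 kb in the siSUV420H1 libraries, against 183, 195, 218 and 176 kb in the siNC libraries. Without the A-196 library of 13464 peaks the mean difference of A-196 from DMSO was -156 kb, against -160.3 kb with it. Every treated library lay below every control library, and the totals of both control groups stood near each other. The place of the cover differed between the controls: from KLRG1 up to CD69 it averaged 35 kb with DMSO and 69 kb with siNC. As a share of the 1230 kb, cover averaged 3.25% with A-196 and 16.3% with DMSO, and 5.34% with siSUV420H1 and 15.7% with siNC.

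**Figure D1:**
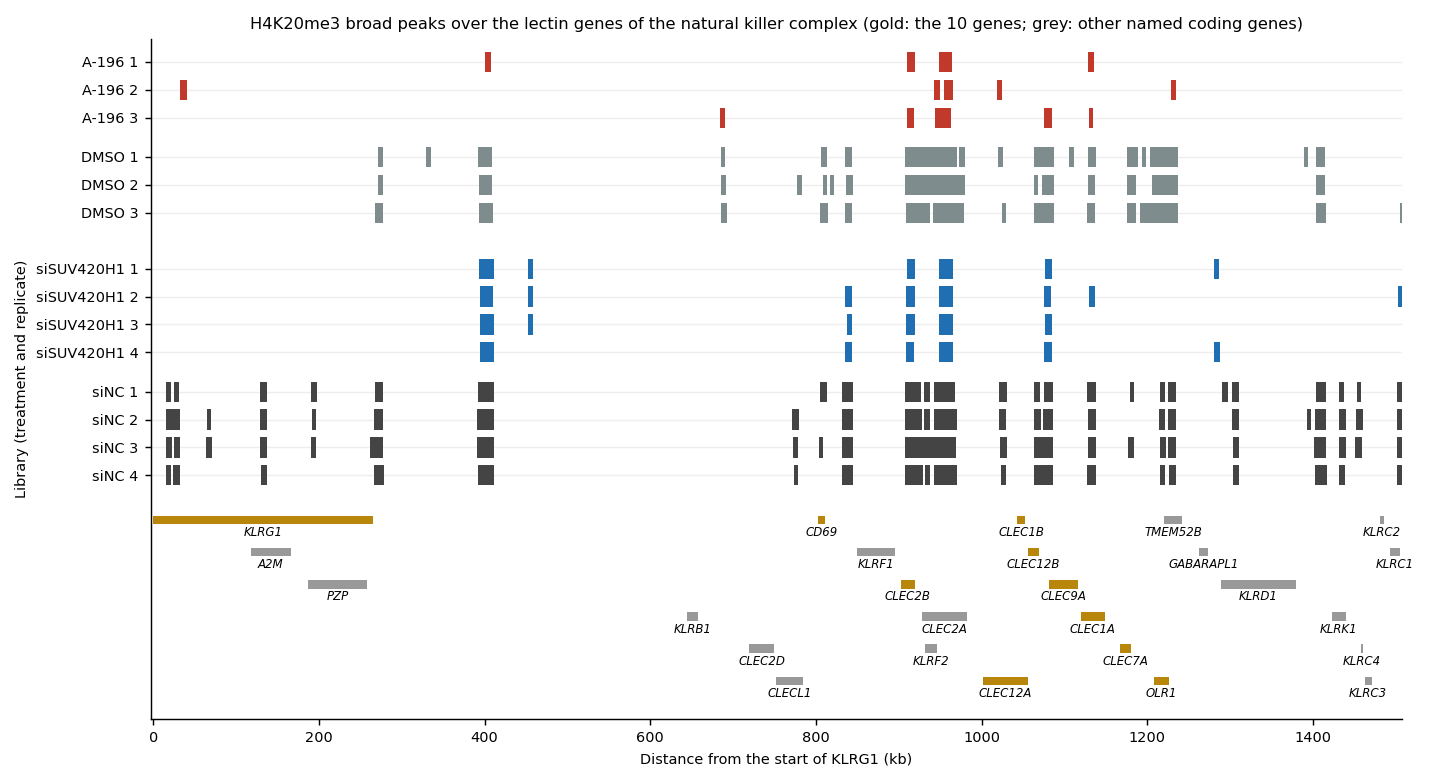
H4K20me3 peaks from KLRG1 through OLR1 to KLRC1, against distance from the start of KLRG1 in kb. There is 1 row per library (A-196 1 to 3, DMSO 1 to 3, siSUV420H1 1 to 4, siNC 1 to 4). Gold bars are the 10 receptor genes and grey bars other coding genes. Within the KLRG1 to OLR1 stretch the A-196 rows hold 32 to 48 kb of peaks and the DMSO rows 187 to 207 kb. The siSUV420H1 rows hold 59 to 77 kb there and the siNC rows 176 to 218 kb.

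The cover was not spread evenly. From KLRG1 up to CD69, where KLRB1 and CLEC2D lie, peaks covered 7.33 kb with A-196 and 35 kb with DMSO on average, and 21.3 kb with siSUV420H1 and 69 kb with siNC. From CD69 to OLR1, where the CLEC genes lie, they covered 32.7 ± 9.02 kb with A-196 and 165 ± 12.2 kb with DMSO (SD, n = 3 each), and 44.5 ± 7.55 kb with siSUV420H1 and 124 ± 10.5 kb with siNC (SD, n = 4 each). Most of the mark thus lay over the CLEC side in all groups. Between coding spans, cover was 6.56 ± 5.97 kb with A-196 and 81.6 ± 10.4 kb with DMSO, and 32.2 ± 4.20 kb with siSUV420H1 and 65.3 ± 3.60 kb with siNC. Inside coding spans it was 33.4 kb with A-196 and 118.6 kb with DMSO, and 33.6 kb with siSUV420H1 and 128 kb with siNC. The cover between genes left 8.04% of its control mean with A-196 and 49.3% with siSUV420H1, while the cover inside genes left 28.2% with A-196 and 26.2% with siSUV420H1. Whether the arms differ in this was not tested.

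Of the 10 genes, a library had 2, 2 and 3 marked with A-196, against 8, 7 and 8 with DMSO. In the siRNA arm it had 2, 3, 2 and 2 marked with siSUV420H1, against 9, 7, 9 and 7 with siNC. The groups did not overlap in either arm. With A-196, 4 genes were lost, meaning marked in every DMSO library and in no A-196 library (CD69, CLEC12B, CLEC7A and OLR1); over all coding genes 1.78% were lost. With siSUV420H1, 4 were lost against siNC (KLRG1, CLEC12A, CLEC12B and OLR1); over all coding genes 2.98% were lost. No gene of the 10 was gained in either arm, against 0.81% of all coding genes with A-196 and 0.342% with siSUV420H1. In each arm 7 of the 10 had less cover in every treated library than in every control library, against 5.51% of all coding genes with A-196 and 6.74% with siSUV420H1. No gene of the 10 had more cover in every treated than in every control library, against 1.09% of all coding genes with A-196 and 2.08% with siSUV420H1. Among genes marked in every control library, 7 of the 10 in each arm, the background is higher: of 1958 such genes 18.0% were lost and 55.5% lower with A-196, and of 2754 such genes 21.5% were lost and 48.2% lower with siSUV420H1. In each arm 9 of the 10 were marked in some library, against 28.3% of all coding genes in the inhibitor arm and 19.9% in the siRNA arm. Over these 9 the median difference in cover was -6.57 kb for A-196, against 1.19 kb over 5613 marked coding genes, and -7.60 kb for siSUV420H1, against -1.25 kb over 3959. Nothing is read from these shares and medians, since the genes were picked on the same libraries.

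The lost calls rest in part on narrow peaks. With only peaks at least as wide as the arm's median width (8 kb with A-196 and DMSO, 9 kb with siSUV420H1 and siNC), 3 genes were lost with A-196 (CLEC1A, CLEC7A and OLR1), and 2 with siSUV420H1 (KLRG1 and CLEC1A). CD69 and CLEC12B then left the lost genes with A-196, and CLEC12A, CLEC12B and OLR1 with siSUV420H1. CLEC1A joined them only because the cut removed its treated peaks, of 7 and 5 kb with A-196 and 8 kb with siSUV420H1. Median peak width was 6, 6 and 7 kb in the A-196 libraries and 10, 9 and 10 kb in the DMSO libraries. The cut thus removed a larger share of the A-196 peaks. The share of all coding genes lost under this cut was not computed.

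**Figure D2:**
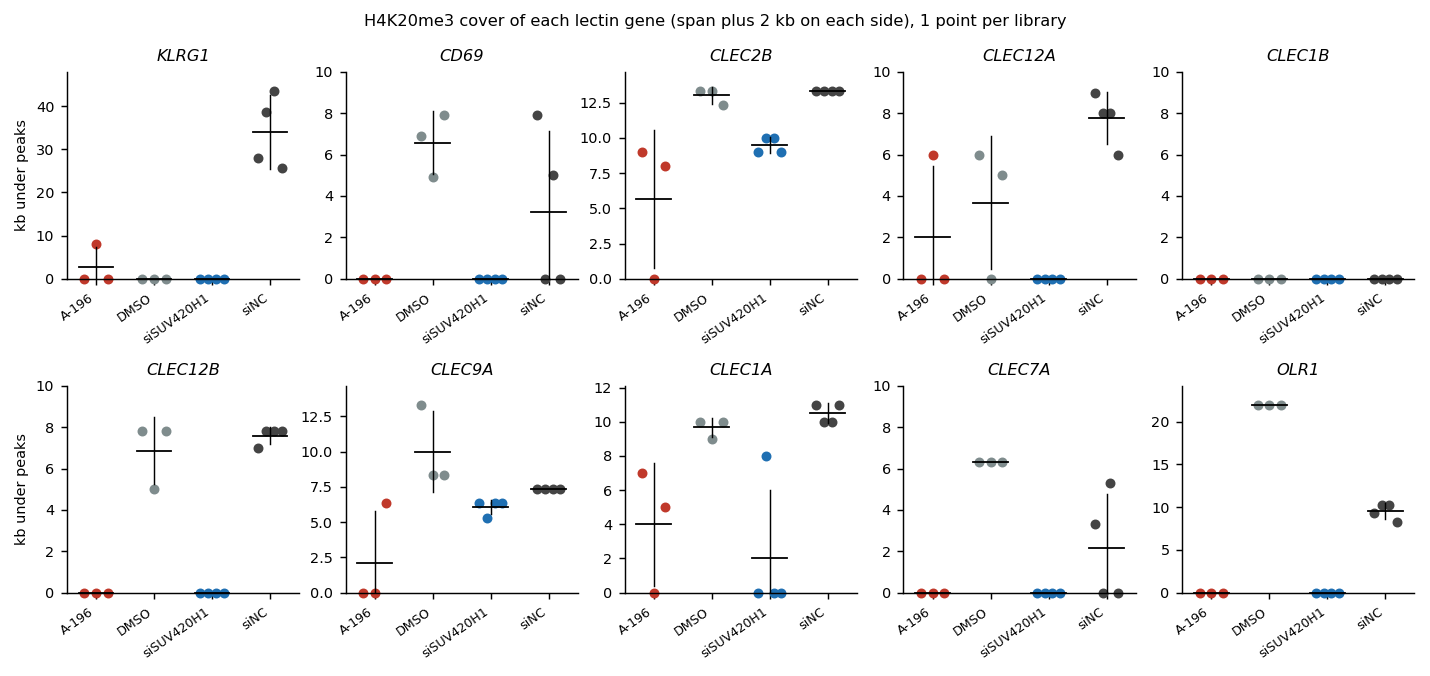
Kb under H4K20me3 peaks over each receptor gene with 2 kb on both sides, 1 point per library, with group means and SD bars cut at 0. The OLR1 points of DMSO sit at 22 kb and those of siNC between 8.27 and 10.3 kb, while all A-196 and siSUV420H1 points sit at 0.

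Receptors known from activated or inhibited lymphocytes came at the telomeric side. KLRG1 encodes an inhibitory receptor of natural killer and T cells that binds cadherins, and its RefSeq span (8950044 to 9215570, hg38) is 265.5 kb long and holds the spans of A2M and PZP. Its cover was 0, 8 and 0 kb with A-196 and 0 kb in each DMSO library, against 0 kb in each siSUV420H1 library and 28, 38.6, 43.6 and 25.6 kb in the siNC libraries. KLRG1 was therefore covered in controls of the siRNA arm but not of the inhibitor arm, and siSUV420H1 and siNC did not overlap. Inside the span, the part over A2M held 9, 9, 9 and 8 kb in siNC and that over PZP 7, 5, 6 and 0 kb, with 0 kb in each siSUV420H1 library. The part before A2M held 12, 23, 23 and 16 kb in siNC, so most of the KLRG1 cover lay outside both inner genes in 3 of the 4 siNC libraries.

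CD69 (9752486 to 9760901) encodes an early activation marker of lymphocytes. Its cover was 0 kb in each A-196 library, against 6.90, 4.90 and 7.90 kb in the DMSO libraries. It was 0 kb in each siSUV420H1 library, against 7.90, 0, 5 and 0 kb in the siNC libraries. CD69 was marked in all 3 DMSO libraries but in only 2 of the 4 siNC libraries, so the siRNA groups overlapped at 0.

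CLEC2B (9852369 to 9869354) encodes AICL, a ligand of the activating receptor KLRF1 on natural killer cells. Its cover was 9, 0 and 8 kb with A-196, against 13.4, 13.4 and 12.4 kb with DMSO. With siSUV420H1 it was 9, 10, 10 and 9 kb, against 13.4 kb in each siNC library. CLEC2B thus kept a peak in every siSUV420H1 library and in 2 of 3 A-196 libraries, but below the control cover in all of them.

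Next came the myeloid receptors and those of platelets. CLEC12A (9951268 to 10006150), an inhibitory receptor of myeloid cells whose span holds that of CLEC1B, had 0, 6 and 0 kb with A-196 and 6, 0 and 5 kb with DMSO. It had 0 kb in each siSUV420H1 library, against 9, 8, 8 and 6 kb in the siNC libraries. The A-196 and DMSO values overlapped and those of siSUV420H1 and siNC did not. CLEC1B (9993075 to 10001899), the platelet receptor for podoplanin, was covered in none of the 14 libraries, so the CLEC12A peaks lay outside it.

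CLEC12B (10006209 to 10018800) encodes another inhibitory receptor. Its cover was 0 kb in each A-196 library, against 7.80, 5 and 7.80 kb in the DMSO libraries. It was 0 kb in each siSUV420H1 library, against 7, 7.80, 7.80 and 7.80 kb in the siNC libraries. No treated library had a peak over it, and all 7 control libraries did. CLEC9A (10030682 to 10066031) encodes the receptor with which dendritic cells bind actin of dead cells, and its cover was 0, 0 and 6.32 kb with A-196, against 13.3, 8.32 and 8.32 kb with DMSO. It was 6.32, 5.32, 6.32 and 6.32 kb with siSUV420H1, against 7.32 kb in each siNC library, so the siRNA groups stood about 1 grid step apart.

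CLEC1A (10069554 to 10098985) encodes a receptor of endothelium and myeloid cells. Its cover was 7, 0 and 5 kb with A-196, against 10, 9 and 10 kb with DMSO. With siSUV420H1 it was 0, 8, 0 and 0 kb, against 11, 10, 10 and 11 kb with siNC. The groups did not overlap, and in the siRNA arm 1 treated library kept a peak that the other 3 had not. CLEC7A (10116777 to 10130304) encodes Dectin-1, a receptor for fungal beta-glucan, and its cover was 0 kb in each A-196 library and 6.30 kb in each DMSO library. It was 0 kb in each siSUV420H1 library, against 3.30, 0, 5.30 and 0 kb in the siNC libraries, which overlapped at 0.

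OLR1 (10158301 to 10176266), which encodes LOX-1, the receptor of endothelium for oxidised LDL, had the longest cover of the 10 in DMSO. Its cover was 0 kb in each A-196 library, against 22 kb in each DMSO library, which is the whole span with its flanks. It was 0 kb in each siSUV420H1 library, against 9.27, 10.3, 10.3 and 8.27 kb in the siNC libraries. The nearest peak to the span lay 73.3, 2.74 and 74.3 kb away in the A-196 libraries, and 54.7, 71.3, 123 and 53.7 kb away in the siSUV420H1 libraries. TMEM52B overlaps OLR1 over 5.75 kb, so the peaks there cannot be given to 1 gene. In DMSO libraries that shared piece was covered over 5.75 kb, the OLR1 piece before it over 12.2 kb and the TMEM52B piece after it over 10.7 kb, the same in all 3. In siNC libraries the OLR1 piece held 5.51, 6.51, 5.51 and 5.51 kb and the shared piece 1.75, 1.75, 2.75 and 0.75 kb. TMEM52B itself with its flanks had 0, 6 and 0 kb with A-196, against 18.5 kb in each DMSO library, and 0 kb in each siSUV420H1 library, against 12.5, 12.5, 12.5 and 10.5 kb in the siNC libraries.

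**Figure D3:**
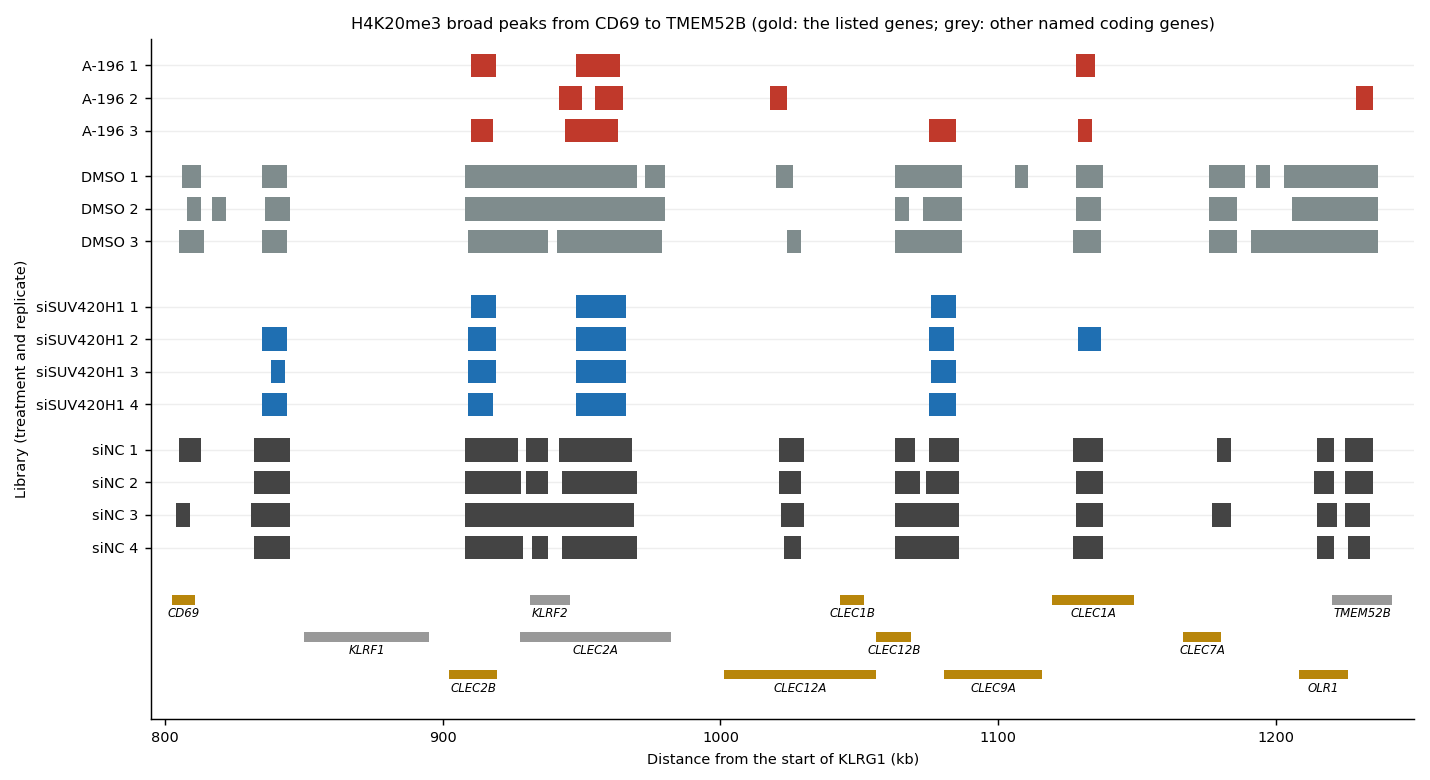
H4K20me3 peaks of the same 14 libraries from CD69 to TMEM52B, against distance from the start of KLRG1 in kb. The CLEC2A block stays marked in every row, with 10 kb common to all 14 libraries, while the OLR1 block is empty over the gene in every A-196 and siSUV420H1 row.

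The longest run of cover was a block over CLEC2B, KLRF2 and CLEC2A (9858001 to 9930000). CLEC2A encodes a ligand known in skin for an activating receptor of natural killer cells, and its cover was 16, 18 and 19 kb with A-196, against 51.3, 54.3 and 50.3 kb with DMSO. It was 18 kb in each siSUV420H1 library, against 35.3, 37.3, 43.3 and 36.3 kb in the siNC libraries. KLRF2, nested in the CLEC2A span and known as that receptor, had 0, 5.83 and 3.83 kb with A-196, against 18.3, 18.3 and 15.3 kb with DMSO, and 0 kb in each siSUV420H1 library, against 13.8, 12.8, 18.3 and 10.8 kb in the siNC libraries. The block as a whole held 25, 18 and 27 kb with A-196, against 69, 72 and 67 kb with DMSO, and 27, 28, 28 and 27 kb with siSUV420H1, against 53, 55, 61 and 54 kb with siNC. Within it, the same 10 kb (9898001 to 9900000 and 9905001 to 9913000) lay under peaks in all 14 libraries. In the siSUV420H1 libraries the run from 9898001 to 9916000 had the same edges in all 4. Of the regions of the stretch present in every DMSO and every siNC library, this block alone had a peak in all 7 treated libraries, each with less cover than every library of its own controls.

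Merging the peaks of all libraries gave 20 regions in the stretch. Of these, 10 were present in every DMSO library, and 10 in every siNC library. With A-196, 4 of its 10 were lost, 1 was kept in all libraries and 5 in some, and with siSUV420H1, 5 of its 10 were lost, 3 kept in all and 2 in some. Over all regions in the genome present in every control library, 26.2% were lost and 33.3% kept in all with A-196, and 32.1% were lost and 49.6% kept in all with siSUV420H1. A region over no coding gene, at 9341001 to 9361000, held 8, 0 and 0 kb with A-196, against 17, 16 and 17 kb with DMSO, and 18, 16, 17 and 16 kb with siSUV420H1, against 19, 20, 20 and 19 kb with siNC. This region kept a peak in every siSUV420H1 library, each with less cover than every siNC library, and in 1 of 3 A-196 libraries, whereas OLR1 was empty in both treated groups. The region over OLR1 and TMEM52B (10141001 to 10187000) held 0, 6 and 0 kb with A-196, against 39, 31 and 46 kb with DMSO, and 0 kb in each siSUV420H1 library, against 16, 17, 16 and 14 kb with siNC.

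In the stretch, the mean overlap of 2 libraries (bases under peaks in both, over bases in either) was 0.29 within A-196. It was 0.18 between A-196 and DMSO and 0.77 within DMSO. In the siRNA arm it was 0.78 within siSUV420H1, 0.31 between siSUV420H1 and siNC and 0.80 within siNC. Between the control groups DMSO and siNC it was 0.53. By this ratio the siSUV420H1 libraries overlapped each other nearly as much as the siNC libraries did. In length they shared less, with 49 kb common to all siSUV420H1 libraries and 156 kb common to all siNC libraries. Among the A-196 libraries, replicates 1 and 3 overlapped at 0.47, and the pairs with replicate 2 at 0.18 and 0.21. Over the genome the same overlaps were 0.32 within A-196, 0.30 between A-196 and DMSO and 0.75 within DMSO, and 0.69 within siSUV420H1, 0.45 between siSUV420H1 and siNC and 0.77 within siNC.

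**Figure D4:**
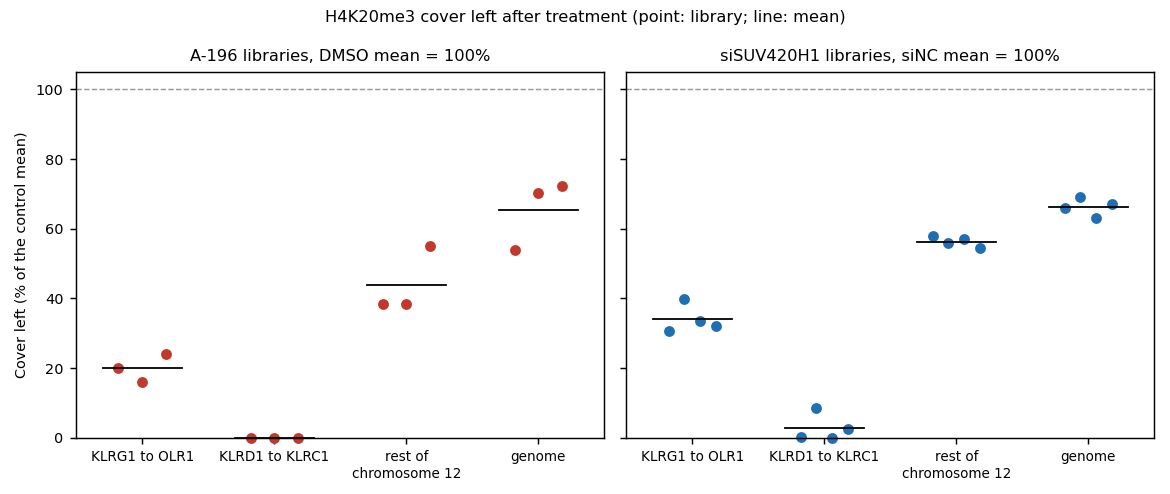
Cover of each measure in treated libraries as a percent of the mean of its own controls, 1 point per library, for A-196 against DMSO and siSUV420H1 against siNC. In the KLRG1 to OLR1 stretch 19.97% was left with A-196 and 34.0% with siSUV420H1, and on the rest of chromosome 12 43.9% was left with A-196 and 56.3% with siSUV420H1.

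For each Mb of genome under peaks, the stretch held 0.420 ± 0.1 kb with A-196 and 1.35 ± 0.0726 kb with DMSO, and 0.528 ± 0.0536 kb with siSUV420H1 and 1.03 ± 0.0712 kb with siNC. The stretch thus held a smaller share of the covered genome in treated libraries of both arms. The rest of chromosome 12 held 3.04 ± 0.675 Mb with A-196 and 6.93 ± 0.193 Mb with DMSO, and 5.23 ± 0.133 Mb with siSUV420H1 and 9.29 ± 0.218 Mb with siNC. It left 43.9% with A-196 and 56.3% with siSUV420H1, and the genome left 65.4% with A-196 and 66.3% with siSUV420H1. The stretch left 19.97% with A-196 and 34.0% with siSUV420H1. These shares come from the same libraries and were not tested against each other.

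Measures that the choice of genes did not use were tested by an exact two-sided permutation test of the difference in group means, with p-values adjusted over 6 tests by the Benjamini-Hochberg method. The lectin stretches among them follow genes listed with earlier results of these data known. The stretch from KLRD1 to KLRC1 (10236961 to 10456685), which holds receptors that bind HLA-E and stress ligands (KLRD1 pairs with KLRC1, and KLRK1 is NKG2D), had 0 kb in each A-196 library, against 17, 12 and 14.7 kb in the DMSO libraries. It had 0.04, 3.68, 0 and 1.04 kb in the siSUV420H1 libraries, against 44.7, 49.7, 44.7 and 35.7 kb in the siNC libraries. The groups did not overlap in either arm. For A-196 the mean difference of -14.6 kb had an exact permutation p of 0.1 (adjusted p = 0.15), and for siSUV420H1 that of -42.5 kb had one of 0.0286 (adjusted p = 0.0857). The rest of chromosome 12 differed by -1.21 on the log2 scale for A-196 (exact permutation p = 0.1, adjusted p = 0.15) and by -0.83 for siSUV420H1 (exact permutation p = 0.0286, adjusted p = 0.0857). The CLEC4 stretch, whose genes include receptors of dendritic cells, had no peak in any of the 14 libraries, so its tests could show no difference. None passed 0.05 after adjustment, and none could have. Before adjustment, 3 libraries against 3 cannot go below 0.1 and 4 against 4 not below 0.0286. With these floors no p-value adjusted over the 6 tests can fall below 0.05, so the threshold decides nothing here. With only peaks at least as wide as the arm's median, the siSUV420H1 difference in the KLRD1 to KLRC1 stretch was -26.4 kb, and with equal numbers of the widest peaks -27.2 kb. The difference between the arms (A-196 minus DMSO, less siSUV420H1 minus siNC) was 27.9 kb in that stretch (exact permutation p = 0.103, adjusted p = 0.309 over 3) and -0.38 in the rest of chromosome 12 (exact permutation p = 0.481, adjusted p = 0.722). In kb it is bounded by the control cover, 14.6 kb in DMSO and 43.7 kb in siNC: as a percent of its own control mean, 0% was left with A-196 and 2.73% with siSUV420H1, so it says nothing of which treatment left less.

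Within that neighbouring stretch, KLRK1 had 0 kb in each siSUV420H1 library, against 6, 9, 9 and 8 kb in the siNC libraries. KLRD1 had cover in siNC of 16, 8, 7 and 7 kb, above every siSUV420H1 library. KLRC1 had 0, 3.69, 0 and 0 kb with siSUV420H1, against 5.69 kb in each siNC library. In the DMSO libraries KLRC1 had 0, 0 and 1.685 kb, and KLRD1, KLRK1, KLRC2, KLRC3 and KLRC4 had 0 kb in each. Most of the DMSO cover of that stretch, and so of its A-196 difference, thus lay outside these genes. Of 17 other lectin genes of the complex, 10 were marked in no library. With A-196, 0 were lost and 2 had lower cover without overlap (CLEC2A and KLRF2). With siSUV420H1, 2 were lost and 5 lower (CLEC2A, KLRF2, KLRD1, KLRK1 and KLRC1). Over all coding genes 1.78% were lost and 5.51% lower with A-196, and 2.98% were lost and 6.74% lower with siSUV420H1. KLRF2 lies inside the CLEC2A span, so their calls are not separate, and nothing is read from these counts. KLRB1, CLEC2D and KLRF1, which lie in the stretch, had no peak in any library, nor had M6PR and GABARAPL1. CLECL1 had 0 kb in each A-196 and siSUV420H1 library, 0, 6 and 0 kb with DMSO, and 0, 9, 6 and 5 kb with siNC.

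Of 35 other coding genes of the region, 23 were marked in no library. With A-196, 5 were lost and 6 lower, among them TMEM52B, PRH1, A2ML1 and RIMKLB. With siSUV420H1, 3 were lost and lower: A2M, A2ML1 and TMEM52B. Over all coding genes 1.78% were lost and 5.51% lower with A-196, and 2.98% were lost and 6.74% lower with siSUV420H1. TMEM52B overlaps OLR1 and A2M lies inside the KLRG1 span, so their calls are not separate from those of the receptor genes. Nothing is read from these counts. A2ML1, which encodes a protease inhibitor of the alpha-2-macroglobulin family, had 0 kb in each A-196 library, against 6, 8 and 5 kb in the DMSO libraries, and 0 kb in each siSUV420H1 library, against 9, 10, 10 and 11 kb in the siNC libraries. RIMKLB had 0 kb in each A-196 library, against 9.36, 1.36 and 7.36 kb in the DMSO libraries.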

How the data were processed

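Genomic DNA from CUT&RUN was measured in 14 H4K20me3 libraries; the 10 other samples were not used. The deposited files are lists of broad peaks, given as start and end coordinates on hg38, and hold no score, so the authors' unit is base pairs under peaks. Per the submitters' processing notes, cutadapt 4.4, Bowtie, Picard 2.27.3 and bedtools 2.30.0 were used. No source used here names the peak caller. Peaks were called per library against an IgG library that differs between the arms, per the names of the deposited lists. Peak ends lie on a grid of 1000 bp, so cover moves in steps of 1 kb. Cover per gene was summed over the RefSeq span with 2000 bp on each side. A gene was marked with at least 200 bp, lost when marked in every control and no treated library, and lower when every treated library lay below every control library. Scripts ran in Python 3.11.15 with numpy 2.4.6, pandas 2.3.3 and matplotlib 3.10.9, and were tested on simulated data.

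Groups follow the labels. Named genes are the 10 receptor genes, every marked coding gene of the stretch, and up to 4 genes with the largest fall or rise per list; in addition, the 5 genes most like the receptor gene with the longest mean control cover. Some genes that this rule names are not reported here. The genes and lists were chosen with earlier results of these data known. Exact permutation tests were run on 3 measures in both arms. Replicate numbers did not pair the libraries (correlations of same-numbered deviations, -0.14 to -0.01 for A-196 with DMSO and -0.51 to 0.14 for siSUV420H1 with siNC), so the tests as reported have no block. Alternatives were a replicate block, wider peaks, equal numbers of peaks, no flanks, overlaps of 1 and 1000 bp, merging within 5 kb, medians, and leaving out each library.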

Additional observations from a re-analysis of the deposited data

Results flagged for a closer look

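In 4 of 18 groups of 4 libraries, 1 library stood apart from the other 3 by more than Dixon's critical value; chance flags about 1 in 20 groups, and ties on the 1 kb grid make such flags easier. The siNC cover of CLEC12B was 7 kb in 1 library and 7.80 kb in the other 3. The siSUV420H1 cover of CLEC9A was 5.32 kb in 1 library and 6.32 kb in the other 3. The siSUV420H1 cover of CLEC1A was 8 kb in 1 library and 0 kb in the other 3. The number of receptor genes marked was 3 in that same siSUV420H1 library and 2 in the other 3.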

How the results depend on the processing

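With only peaks at least as wide as the arm's median, the number of receptor genes marked differed by -4.67 with A-196 and -3.75 with siSUV420H1, the stretch cover by -139 kb and -88.2 kb, and siSUV420H1 lost 2 genes and lowered 4; as reported, these were -5.33 and -5.75 genes, -160.3 kb and -128 kb, and 4 lost and 7 lower. With equal numbers of the widest peaks the stretch differed by -87 kb with siSUV420H1. Leaving out 1 library gave 4 to 5 lost genes in both arms (CLEC9A joined without A-196 replicate 3, CLEC1A without siSUV420H1 replicate 2) and 7 lower genes in both; the genes marked differed by -5.67 to -5.17 with A-196 and -6.08 to -5.42 with siSUV420H1, and the stretch by -167 to -156 kb and -133 to -119 kb. The KLRD1 to KLRC1 stretch gave -15.8 to -13.3 kb and -45.2 to -40.5 kb. Wider peaks gave -26.4 kb there with siSUV420H1, and equal numbers of peaks -27.2 kb, against -42.5 kb as reported; with wider peaks the difference between arms was 14.1 kb, against 27.9 kb. With a replicate block, the KLRD1 to KLRC1 difference stayed at -14.6 kb with A-196 (exact paired permutation p = 0.25, the smallest possible) and -42.5 kb with siSUV420H1 (exact p = 0.125, the smallest possible). No result turned direction under these alternatives. Depth is unknown, and no narrow or weak mark below the caller's limit can be seen.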

Other observations

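Genes of the receptors' partners were mostly unmarked, as were coding genes in general. Of all coding genes 28.3% were marked in some library of the inhibitor arm and 19.9% in some library of the siRNA arm. With A-196 1.78% of all coding genes were lost and 5.51% lower, and with siSUV420H1 2.98% were lost and 6.74% lower. Nothing is read from the list counts that follow. Of 24 ligand genes 21 were marked in no library, and 0 were lost or lower in either arm; CDH4, a cadherin, had 53, 96 and 0 kb with A-196, against 0 kb in every library of the other groups, and CDH2, a ligand of KLRG1, had 9, 6, 9 and 6 kb with siSUV420H1, against 9 kb in each siNC library. Of 16 signalling partner genes 9 were marked nowhere and none changed without overlap. Of 49 C-type lectin genes elsewhere in the genome 31 were marked nowhere; those with lower cover in every A-196 than in every DMSO library included CLEC5A, CD93 and LAYN, and those lost with siSUV420H1 included CD248 and SFTPD. CHODL was higher in every siSUV420H1 library (15.7, 18, 15 and 22 kb) than in every siNC library (10.7, 10.7, 10 and 10.7 kb). Of 8 leukocyte genes 4 were marked nowhere and none changed without overlap. Of 9 squamous genes 7 were marked nowhere, and TP63 was lower in both arms, with 68.3, 57.3 and 110.3 kb with A-196, against 234, 229 and 203 kb with DMSO, and 58.3, 55.3, 50.3 and 52.3 kb with siSUV420H1, against 117, 125, 126 and 127 kb with siNC.

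Of 2003 coding genes of like length off chromosome 12, those whose cover over the 14 libraries was most like that of KLRG1 included STK32A, CPVL, NGEF and TBXAS1, with a mean difference of 1.39 to 1.52 percentage points of span. STK32A had 0 kb in each A-196, DMSO and siSUV420H1 library and 14, 15, 15 and 14 kb in the siNC libraries. For OLR1, a comparison chosen after its values were seen, TMEM207 was nearest of 6475 genes, with 0, 0 and 1.90 kb with A-196, against 19.2, 20.2 and 20.2 kb with DMSO, and 0 kb in each siSUV420H1 library, against 10.3, 9, 11 and 9.35 kb in the siNC libraries. Nothing is drawn from this on shared control.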
